A study of Mus musculus with 6 samples.

Results

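The nuclear-encoded subunits of the mitochondrial respiratory chain were examined in tumour hepatocytes with and without Ripply1. The genes were taken by symbol from a table of 18260 genes: all symbols that start with Ndufa, Ndufb, Ndufc, Ndufs, Ndufv, Uqcr or Atp5, the 4 genes Sdha to Sdhd, and symbols that start with Cox4 to Cox8 and go on with letters. This gave 90 genes. Complex I had 35 subunits, complex II 4, complex III 8, complex IV 16 and complex V 15. The other 12 rows were 7 complex I assembly factors (Ndufaf1 to Ndufaf7), Cox7a2l, which joins complexes III and IV, and further rows caught by the prefix Atp5. The latter were Atp5s, Atp5sl (also named Dmac2) and the pseudogenes Atp5l2-ps and Atp5l-ps1. After a filter on low counts, 86 of the 90 were tested. The 4 that were not were Cox4i2, Cox6a2, Cox6b2 and Cox7a1, which are forms of complex IV subunits typical of other tissues.

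The respiratory chain lies in the inner mitochondrial membrane. Complex I takes electrons from NADH and complex II from succinate; complex III passes them to cytochrome c, and complex IV to oxygen. Complexes I, III and IV pump protons, and complex V, the ATP synthase, uses the proton gradient to make ATP. Hepatocytes are rich in mitochondria and depend on this chain for urea synthesis, gluconeogenesis and fatty acid oxidation. Most subunits are encoded in the nucleus. The few that the mitochondrial genome encodes were not analysed here.

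Male mice of both groups had Ripply1 alleles in which loxP sites enclose exons 1 to 3; Ripply1 is a transcriptional co-repressor. The F/F group (3 libraries) had these alleles alone. The ΔHep group (3 libraries) also carried Alb-Cre, a recombinase driven by the albumin promoter, which is active in hepatocytes. Whether other liver cells kept the gene was not measured here. All mice had received the liver carcinogen diethylnitrosamine (DEN, 90 μg per g) once at 6 weeks of age and, after 3 weeks, a diet with 0.05% phenobarbital (PB), a tumour promoter, for 27 weeks. The tumours were taken 30 weeks after DEN, and RNA of the primary hepatocytes prepared from them was sequenced. No label says that replicates came from separate animals, so p-values measure only the spread between these samples, which may be partly technical.

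Library totals ran from 27772849 to 35894395 counts. The targeted gene, Ripply1, had 13, 8 and 12 counts across F/F replicates 1, 2 and 3, against 1, 1 and 2 across ΔHep replicates 1, 2 and 3; reads from parts of the gene that are not deleted may be among them. All 12 hepatocyte markers were present in every library, with a summed level between 109300 and 137400 counts-per-million (CPM, on scaled library sizes). Markers of other cell types were present too, and some of them were higher in ΔHep. The 12 stellate cell and fibroblast markers summed to between 317.6 and 482.2 CPM in F/F and between 669.5 and 948.1 CPM in ΔHep, and 7 of 12 passed the test. Of all 14552 tested genes, 244 (1.68%) passed at an edgeR adjusted p below 0.05, 220 of them higher in ΔHep. The 12 macrophage markers summed to between 199.9 and 503.9 CPM and between 454.2 and 609.2 CPM (2 of 12 passed), the 10 endothelial markers to between 367 and 656.1 CPM and between 683.6 and 788.3 CPM (1 of 10), and the 10 cholangiocyte markers to between 50.99 and 107.6 CPM and between 89.97 and 166.9 CPM (5 of 9 tested), with Cftr at 0 in at least 1 library. Markers of T and NK cells (8 genes) lay between 5.848 and 8.282 CPM and between 10.87 and 25.77 CPM, those of B and plasma cells (7 genes) between 6.608 and 14.13 CPM and between 19.49 and 31.66 CPM, and those of erythroid cells (5 genes) between 121.8 and 147.1 CPM and between 122.6 and 202.3 CPM, with 0 passing in each. The part of these cells in the results below was not tested. In such bulk samples fewer hepatocytes and less RNA per hepatocyte cannot be told apart.

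Many promoters of these genes hold a binding motif of NRF1, a transcription factor known to activate respiratory genes. RefSeq promoters (build GRCm38.p6, from 250 bases before to 50 bases after the start, 1 for each gene) were matched for 73 of the 90 genes. The NRF1 consensus, allowing any base at 1 position and read on both strands, were in 18 of the 73 (24.7%), against 4.78% of 27025 promoters of all genes and 9.88% of the 10453 promoters of tested genes. The other motifs searched, also on both strands, were the YY1 consensus in 5 of 73 (6.8%; 0.9% of all and 1.97% of tested genes), CCGGAAG (ETS factors such as GABP) in 16 (21.9%; 9.12% and 17.12%) and TCAAGGTCA (oestrogen-related receptors) in 2 (2.7%; 0.41% and 0.27%). The stretches below show the NRF1 consensus in capitals for the most highly expressed subunit of each complex with a match upstream of its start; complex III had no such match among its matched promoters. They end at most at the RefSeq start site and read 5′ to 3′ along the gene. Gene positions given below are from the GENCODE annotation. Its starts of Ndufa8, 36049406, and of Sdha, 74350280, lie within the stretches of these genes. The Ndufa8 match, and the Sdha match nearer the RefSeq start, thus lie upstream of the RefSeq start but not of the GENCODE start.
Ndufa8, complex I, chr2:36049339-36049413, minus strand: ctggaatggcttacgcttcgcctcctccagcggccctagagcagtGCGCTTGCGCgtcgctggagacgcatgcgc
Sdha, complex II, chr13:74350241-74350295, minus strand: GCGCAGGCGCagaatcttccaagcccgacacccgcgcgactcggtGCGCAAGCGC
Cox6a1, complex IV, chr5:115349021-115349120, minus strand: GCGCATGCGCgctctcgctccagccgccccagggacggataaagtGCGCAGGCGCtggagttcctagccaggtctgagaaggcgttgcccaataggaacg
Atp5h, complex V, chr11:115420006-115420105, minus strand: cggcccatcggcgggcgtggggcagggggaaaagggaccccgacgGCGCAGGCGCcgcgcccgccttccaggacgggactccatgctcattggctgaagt
Sdha and Cox6a1 each show 2 matches, and Ndufa8 and Atp5h 1. A match describes letters and does not show binding.

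No respiratory chain gene passed the test for a difference between ΔHep and F/F. With edgeR's quasi-likelihood test and Benjamini-Hochberg adjustment over 14552 genes, 0 of 86 members had an adjusted p below 0.05, where 1.68% of all tested genes did (0.165% in the lower direction). Of the 86, 9 (10.5%) had an unadjusted p below 0.05, all of them lower in ΔHep, where the background was 6.97% lower and 14.1% higher. That count of 9 was 3, 2 and 22 without F/F replicates 1, 2 and 3 in turn, and 6, 3 and 7 without ΔHep replicates 1, 2 and 3. DESeq2 called 2, both lower (Ndufb3 and Ndufaf4), where it called 1.64% of all genes lower, and limma-voom called 0. The fold changes were small and mostly of one sign: 75 of 86 (87.2%) were negative, where 51.2% of all tested genes were. With library totals only as the scaling, which moved the median of all genes to 0.085, 55 of 86 were negative, and without ΔHep replicate 2 it was 63 of 87. The median log2 fold change of ΔHep over F/F was -0.14 for the members and -0.01 for all tested genes. Without ΔHep replicate 2 the members' median was -0.073, and without F/F replicate 1 it was -0.076.

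**Figure D1:**
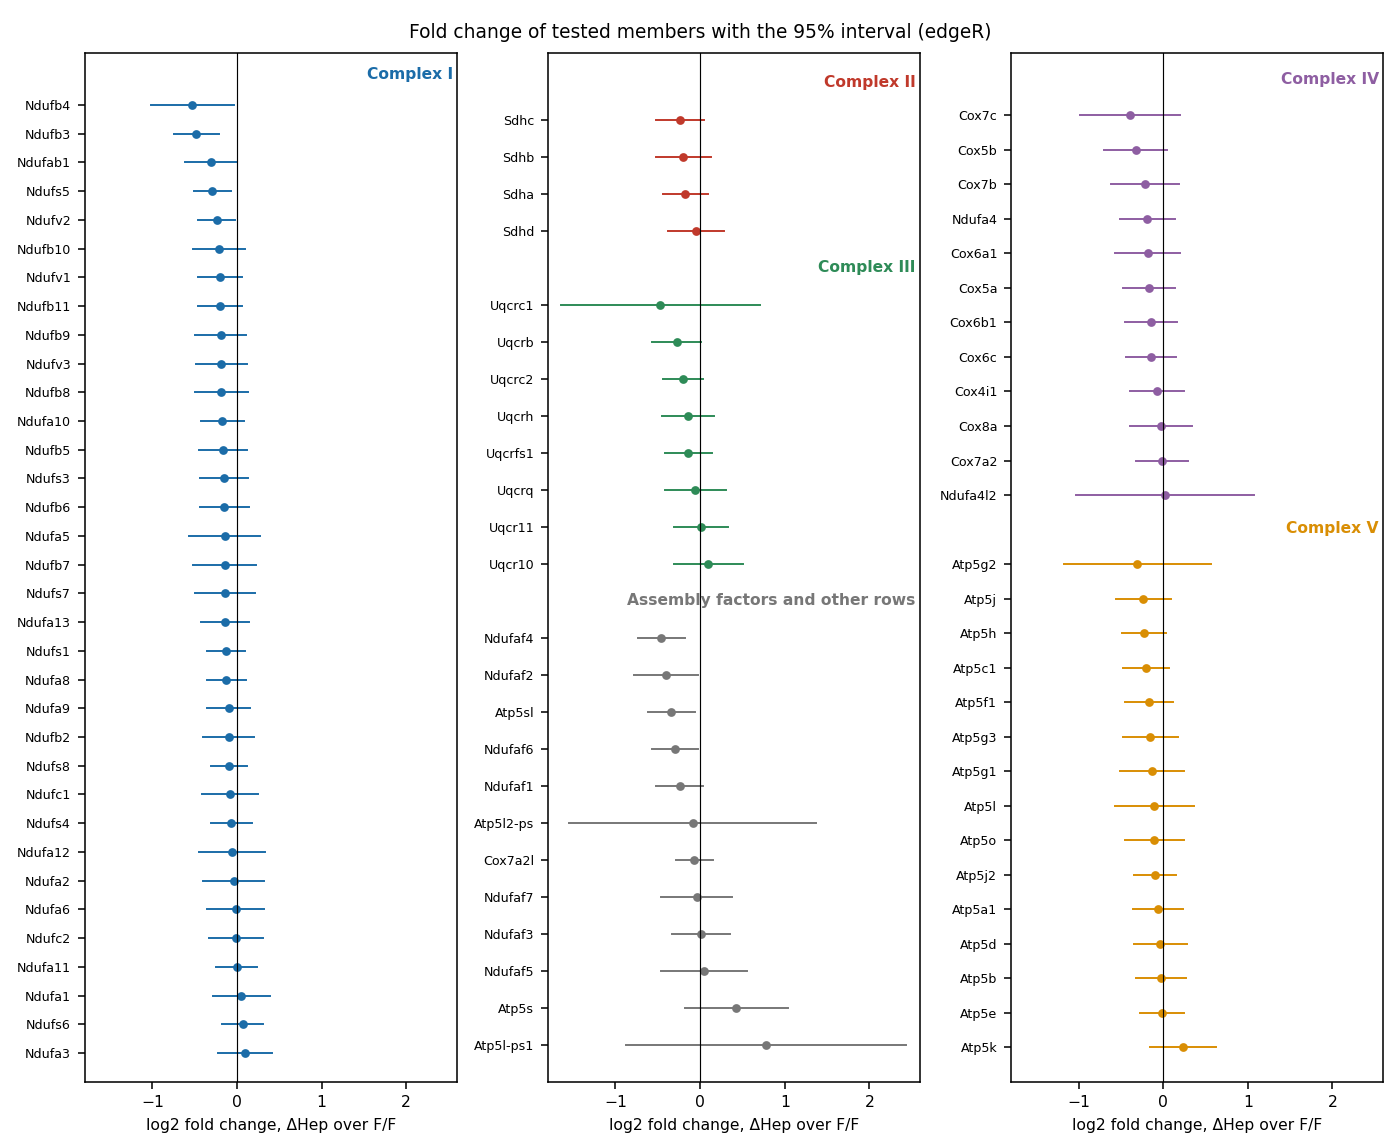
Log2 fold change of ΔHep over F/F for 85 of the 86 tested members (points) with its 95% interval from edgeR (lines), grouped by complex and ordered within it. Most intervals are narrow and include 0; those of 9 members lie wholly below 0 and none lies wholly above it.

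The intervals bound what could have been missed only in terms of the spread between these samples, which may be partly technical. For 79 of 86 members the 95% interval of the fold change lay within a 2-fold change in either direction, and for 70 within a 1.5-fold change. The 7 exceptions were Atp5g2, Atp5l2-ps, Atp5l-ps1, Atp5s, Ndufa4l2, Ndufb4 and Uqcrc1, all of them low in counts. The group ranges did not overlap for 11 members, all lower in ΔHep, or 12.8%, beside a background of 11.8% lower and 15.3% higher. The members' share of non-overlapping lower genes was thus near the background.

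Complex I, the NADH dehydrogenase, is by far the largest set, and 5 of its 35 subunits had an unadjusted p below 0.05, all lower, beside the background of 6.97%. The summed level of its 35 subunits was 2490, 2372 and 2112 CPM in F/F replicates 1, 2 and 3 and 2088, 1953 and 2292 CPM in ΔHep replicates 1, 2 and 3. The groups overlapped, since ΔHep replicate 3 lay above F/F replicate 3. The median log2 fold change was -0.14, and 32 of 35 were negative. The 7 catalytic core subunits, which carry the flavin and the iron-sulphur clusters, had a median of -0.14 with 7 negative values, and the 28 accessory subunits had a median of -0.14 with 25 negative.

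Ndufb3, an accessory subunit of the membrane arm, lies on chromosome 1 from 58586384 to 58595964 on the plus strand (GRCm38). Its level was 39.4, 38.9 and 31.7 CPM in F/F and 26.7, 26.1 and 26.1 CPM in ΔHep replicates 1, 2 and 3. All ΔHep libraries lay below all F/F libraries. The log2 fold change was -0.48 (SE 0.12, edgeR adjusted p = 0.0714), the smallest p among the members, and it did not pass. With DESeq2 it did (-0.49, adjusted p = 0.0176).

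Among other complex I subunits with an unadjusted p below 0.05, Ndufs5, an accessory subunit of the intermembrane face, had means of 33.6 ± 1.54 CPM for F/F and 27.4 ± 0.649 CPM for ΔHep (SD, n = 3 each; log2 fold change -0.29, edgeR adjusted p = 0.147). Ndufv2, a core subunit with an iron-sulphur cluster, stood at 84.2 ± 2.81 and 71.2 ± 4.16 CPM (-0.24, edgeR adjusted p = 0.198). For neither gene did the groups overlap. The share of 50-base words of the mRNA that also occur in another annotated gene was 31.06% for Ndufs5, so its counts are uncertain. Ndufab1, the mitochondrial acyl carrier protein, had a log2 fold change of -0.31 (edgeR adjusted p = 0.227) with overlapping ranges. Ndufb4, a membrane-arm subunit at only 4.53 ± 0.333 and 3.14 ± 0.537 CPM, had the lowest fold change of complex I, -0.53 (SE 0.21, edgeR adjusted p = 0.21); 36.98% of the 50-base words of its mRNA also occur in other annotated genes, so its counts are uncertain. The highest fold change was that of the accessory subunit Ndufa3, 0.10 (SE 0.14, edgeR adjusted p = 0.739), and it turned to -0.0057 without ΔHep replicate 3.

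The complex I assembly factors build the enzyme and are absent from the finished complex. Of these 7 genes, 3 had an unadjusted p below 0.05, all lower, beside a background of 6.97% lower and 14.1% higher. The group ranges did not overlap for 4 of the 7, all lower, beside a background of 11.8% lower and 15.3% higher. Ndufaf4 lies on chromosome 4 from 24898083 to 24905001 on the plus strand. It was at 60.2, 52.0 and 44.4 CPM in F/F replicates 1, 2 and 3 and at 37.4, 38.7 and 37.9 CPM in ΔHep replicates 1, 2 and 3. The groups did not overlap, and the ΔHep libraries lay close together. The log2 fold change was -0.46 (SE 0.12, edgeR adjusted p = 0.0916), and DESeq2 gave an adjusted p of 0.0354.

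Ndufaf2 had means of 6.42 ± 0.381 CPM for F/F and 4.84 ± 0.342 CPM for ΔHep (-0.41, edgeR adjusted p = 0.21) and Ndufaf6 at 16.6 ± 0.649 and 13.5 ± 0.733 CPM (-0.30, edgeR adjusted p = 0.203), each SD with n = 3. Ndufaf1 was lower without overlap as well (-0.24, edgeR adjusted p = 0.299). The other 3 factors lay near 0: Ndufaf3 at 0.0098, Ndufaf5 at 0.04 and Ndufaf7 at -0.04. The median of the 7 was -0.24, and their summed level was between 115.5 and 129.7 CPM in F/F and between 95.39 and 103.3 CPM in ΔHep. Atp5sl, also named Dmac2 and known in human cells as an assembly factor of the complex I membrane arm, was at 38.3 ± 4.88 and 30.2 ± 1.78 CPM (SD, n = 3 each; -0.34, edgeR adjusted p = 0.169). The 9 genes with an unadjusted p below 0.05 were Ndufb3, Ndufb4, Ndufs5, Ndufv2, Ndufab1, Ndufaf2, Ndufaf4, Ndufaf6 and Atp5sl. All 9 are named here because of their values, Ndufb4 by the rule that names the lowest fold change of each complex.

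Complex II, succinate dehydrogenase, is also an enzyme of the tricarboxylic acid cycle, and all of its subunits are nuclear. Its 4 genes summed to 1176, 1119 and 1014 CPM in F/F replicates 1, 2 and 3 and to 1017, 887.3 and 1046 CPM in ΔHep replicates 1, 2 and 3. The groups overlapped. The median log2 fold change was -0.19, with 4 of 4 values negative.

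Sdha, the flavoprotein that oxidises succinate (chromosome 13, 74322254 to 74350280, minus strand), was at 601, 595 and 563 CPM in F/F and at 543, 475 and 540 CPM in ΔHep. Every ΔHep library lay below every F/F library, and the log2 fold change was -0.17 (SE 0.12, edgeR adjusted p = 0.422). Sdhb, the iron-sulphur subunit, was at 208, 181 and 158 CPM in F/F and at 175, 136 and 167 CPM in ΔHep (-0.20, SE 0.14, edgeR adjusted p = 0.466), with overlapping groups. Of the pair that anchors the enzyme in the membrane, Sdhc was at 170, 151 and 134 CPM in F/F and at 138, 116 and 130 CPM in ΔHep (-0.24, SE 0.12, edgeR adjusted p = 0.306). Sdhd was at 198, 192 and 158 CPM in F/F and at 162, 160 and 208 CPM in ΔHep (-0.05, SE 0.14, edgeR adjusted p = 0.882), with its highest value in ΔHep replicate 3. The Sdhd interval, from -0.38 to 0.28, overlapped that of Sdhc, from -0.52 to 0.04, and the difference between them was not tested.

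Complex III, the cytochrome bc1 complex, summed to 989.6, 954.5 and 827.6 CPM over 8 genes in F/F replicates 1, 2 and 3 and to 843.2, 771.1 and 932.3 CPM in ΔHep replicates 1, 2 and 3. The median log2 fold change was -0.14. Uqcrc2, a core subunit and the one with the most counts, was at 243, 235 and 224 CPM in F/F and at 207, 190 and 212 CPM in ΔHep. These groups did not overlap, and the log2 fold change was -0.21 (SE 0.10, edgeR adjusted p = 0.296). Uqcr10, a small accessory subunit, had the highest fold change of the complex, 0.10 (SE 0.18, edgeR adjusted p = 0.794), with its highest level, 86.1 CPM, in ΔHep replicate 3; without that library it was -0.10. Uqcrc1, the partner core subunit, had few counts. It was at 1.91, 1.53 and 6.28 CPM in F/F and at 2.25, 2.94 and 1.82 CPM in ΔHep. F/F replicate 3 alone set its direction, since the log2 fold change was -0.47 (SE 0.52) with it and 0.43 without it.

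Complex IV, cytochrome c oxidase, summed to 1474, 1432 and 1138 CPM in F/F replicates 1, 2 and 3 and to 1191, 1077 and 1406 CPM in ΔHep replicates 1, 2 and 3. The groups overlapped widely. All 11 main liver forms had a negative fold change, with a median of -0.17, but only for Cox5b, which binds zinc on the matrix side, Cox7b and Cox7c was it below -0.20. Cox5b is named for its values: it was at 96.1, 88.8 and 62.0 CPM in F/F and at 66.4, 60.4 and 70.1 CPM in ΔHep (-0.33, SE 0.16, edgeR adjusted p = 0.29). F/F replicate 3 lay within the ΔHep range, and without it edgeR called Cox5b lower (-0.50, adjusted p = 0.0349). Cox7c, a small membrane subunit, had the lowest fold change, -0.39 (SE 0.26, edgeR adjusted p = 0.423).

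Paired forms of complex IV subunits showed the liver pattern in both groups. Cox4i1, the general form of the regulatory subunit, was at 287, 280 and 238 CPM in F/F and at 239, 229 and 296 CPM in ΔHep (-0.07, edgeR adjusted p = 0.802). Its lung form Cox4i2 had 9, 0 and 1 counts in F/F and 4, 3 and 8 counts in ΔHep. Cox6a1 was at 195, 187 and 135 CPM in F/F and 149, 132 and 175 CPM in ΔHep (-0.18, edgeR adjusted p = 0.572), against 0, 0 and 1 and then 1, 6 and 10 counts of Cox6a2, the form of heart and muscle.

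Cox6b1 stood at 109 ± 7.51 and 98.7 ± 15.8 CPM (SD, n = 3 each; -0.15, edgeR adjusted p = 0.572), while Cox6b2, the testis form, had 1, 4 and 1 counts in F/F and 1, 7 and 10 counts in ΔHep. Cox7a2, the liver form, was at 77.0 ± 7.14 and 76.4 ± 12.1 CPM (-0.01, edgeR adjusted p = 0.975) and Cox8a at 129 ± 21.5 and 127 ± 19.4 CPM (-0.03, edgeR adjusted p = 0.939). Cox7a1, the muscle form, had 10, 6 and 3 counts in F/F and 9, 9 and 34 counts in ΔHep, with the highest value in ΔHep replicate 3 (exact two-sided permutation p = 0.4 for its CPM; 3 against 3 libraries cannot go below 0.1).

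Ndufa4, named after complex I but a subunit of complex IV, was at 187, 189 and 141 CPM in F/F and at 150, 136 and 167 CPM in ΔHep (-0.19, edgeR adjusted p = 0.492). Its hypoxia-inducible relative Ndufa4l2 was at 0.937, 1.68 and 0.502 CPM in F/F and at 1.13, 0.949 and 1.11 CPM in ΔHep (0.02, edgeR adjusted p = 0.985). Cox7a2l, which binds complexes III and IV together in supercomplexes, was at 93.7 ± 5.06 and 89.4 ± 3.75 CPM (SD, n = 3 each; -0.07, edgeR adjusted p = 0.731), with a 95% interval from -0.29 to 0.15.

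Complex V, the ATP synthase, had a median log2 fold change of -0.10 over 15 subunits with 14 negative values. It summed to 4099, 3917 and 3649 CPM in F/F replicates 1, 2 and 3 and to 3714, 3258 and 4063 CPM in ΔHep replicates 1, 2 and 3. Atp5b, the catalytic β subunit (chromosome 10, 128083273 to 128090391, plus strand), was the most abundant member of all. It was at 1254, 1241 and 1191 CPM in F/F and at 1212, 1067 and 1343 CPM in ΔHep. The groups overlapped, and the log2 fold change was -0.03 (SE 0.13, edgeR adjusted p = 0.936; 95% interval -0.33 to 0.28).

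The 5 subunits of the catalytic head had a median of -0.03 and the 10 of the membrane part and stalk a median of -0.14. Atp5k, subunit e of the membrane part, had the highest fold change, 0.23 (SE 0.17, edgeR adjusted p = 0.461), and Atp5g2, 1 of the 3 genes of the proton-carrying c ring, the lowest, -0.30 (SE 0.38, edgeR adjusted p = 0.694), at about 1 CPM. The ATPase inhibitory factor, listed here under its older symbol Atpif1 and so outside the 90 genes, was at 7.39, 7.04 and 5.70 CPM in F/F and at 7.14, 9.06 and 7.92 CPM in ΔHep (0.26, SE 0.17, edgeR adjusted p = 0.428).

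**Figure D2:**
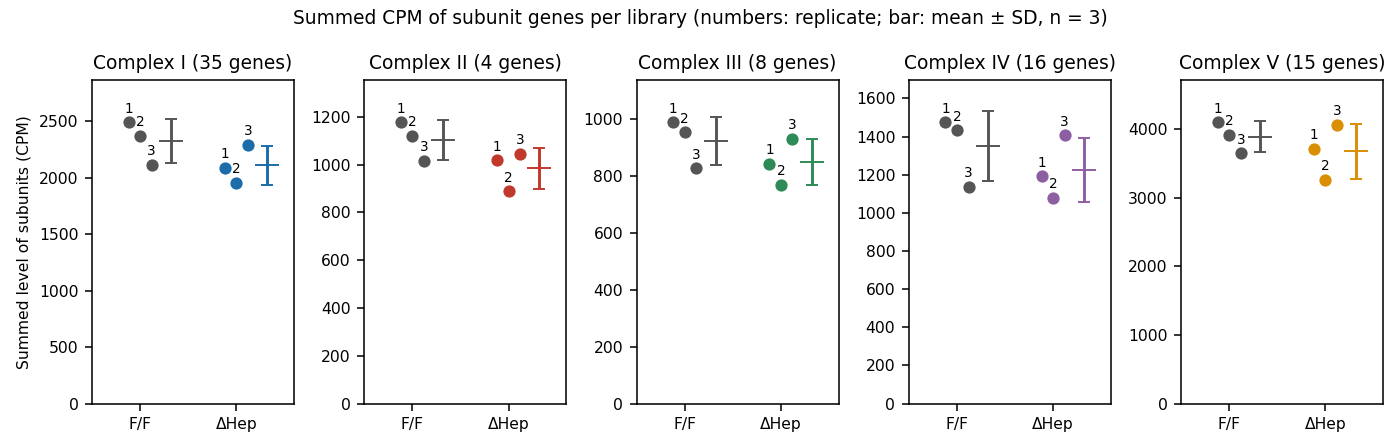
Summed CPM of the subunit genes of complexes I to V (vertical axes from 0) in each library, with the replicate number beside each point and the group mean ± SD (n = 3) beside it. In all 5 complexes the groups overlap, F/F replicate 3 is the lowest F/F library and ΔHep replicate 3 the highest ΔHep library.

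Set side by side, the 5 complexes had medians between -0.19 and -0.10, and the ratio of mean summed levels, ΔHep over F/F, was 0.908 for complex I, 0.892 for II, 0.919 for III, 0.908 for IV and 0.946 for V. These 5 values lie within a narrow band. The order of the medians changed when single libraries were left out, and no test of a difference between complexes was made.

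The members' levels varied together from library to library. F/F replicate 3 was the lowest F/F library for 68 of 86 members (79.07%), against 36.85% of all tested genes. ΔHep replicate 2 was the lowest ΔHep library for 65 members (75.58%, against 31.91%) and ΔHep replicate 3 the highest for 66 (76.74%, against 32.83%). Relative to each gene's mean, the median log2 level of the members was 0.175, 0.11 and -0.076 for F/F replicates 1, 2 and 3, and for ΔHep it was -0.075, -0.19 and 0.066. The median of all tested genes stayed between -0.002 and 0.015. The span within a group thus exceeded the members' median fold change.

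**Figure D3:**
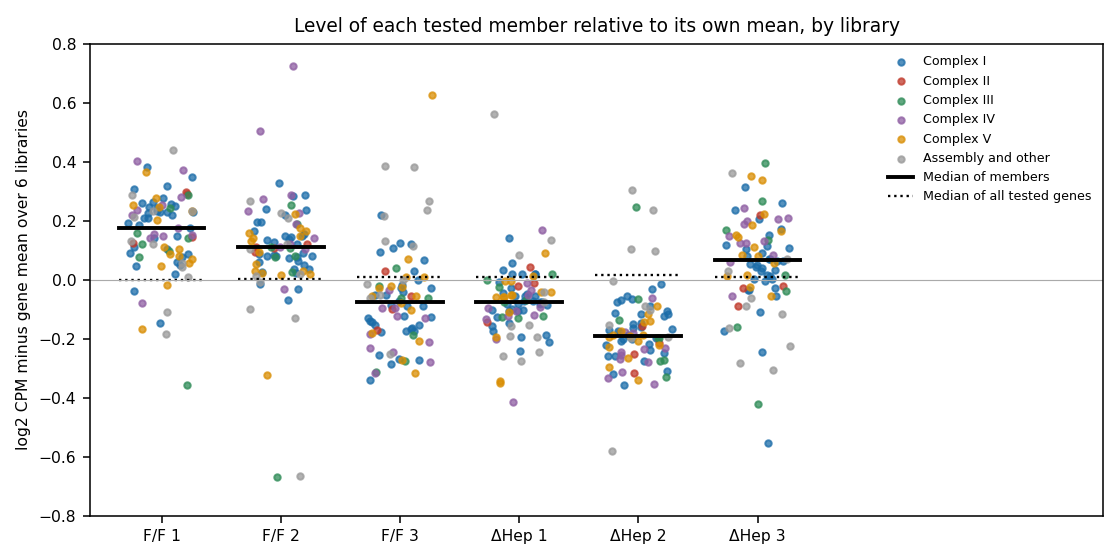
Log2 CPM of each tested member minus its mean over the 6 libraries (points, coloured by complex), with the median of the members (solid bars) and of all tested genes (dotted bars). The members' medians run from -0.19 in ΔHep replicate 2 to 0.175 in F/F replicate 1 and overlap between the groups; 4 members have points beyond the axis limit of 0.8.

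In the same libraries the hepatocyte markers lay at 0.023, -0.048 and 0.07 in F/F and at -0.035, -0.088 and 0.078 in ΔHep on that scale (mean over 12 genes), and the stellate cell markers at -0.919, -0.675 and -0.308 and at 0.234, 0.835 and 0.833. F/F replicate 3 had the highest stellate cell, macrophage, endothelial and cholangiocyte sums of the F/F group (482.2, 503.9, 656.1 and 107.6 CPM). Its hepatocyte value on that scale, 0.07, was also the highest of the group. By summed level its hepatocyte markers, at 128100 CPM, lay slightly below those of F/F replicate 1, at 128400 CPM. ΔHep replicate 2 had the lowest hepatocyte sum, 109300 CPM. ΔHep replicate 3 had the highest hepatocyte sum, 137400 CPM, and the highest endothelial sum, 788.3 CPM. The part of these cells in the members' levels was not tested.

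Levels per length, in CPM per kb of mRNA averaged over all 6 libraries, differed far more between subunits of a complex than between genotypes. In complex I they ran from 3.95 for Ndufb4 to 234 for Ndufa6, with a median of 65.3 over 35 genes. Complexes II, III, IV and V had medians of 147.8, 152.8, 173 and 150 over 4, 8, 12 and 14 genes. The highest were Sdha in complex II (190.7), Uqcrq in complex III (314.5), Ndufa4 in complex IV (351.7) and Atp5b in complex V (635.7). Atp5b stands as 3 copies in each enzyme, which is background and not a measurement here. Atp5o had no single annotated gene of its name and was left out.

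**Figure D4:**
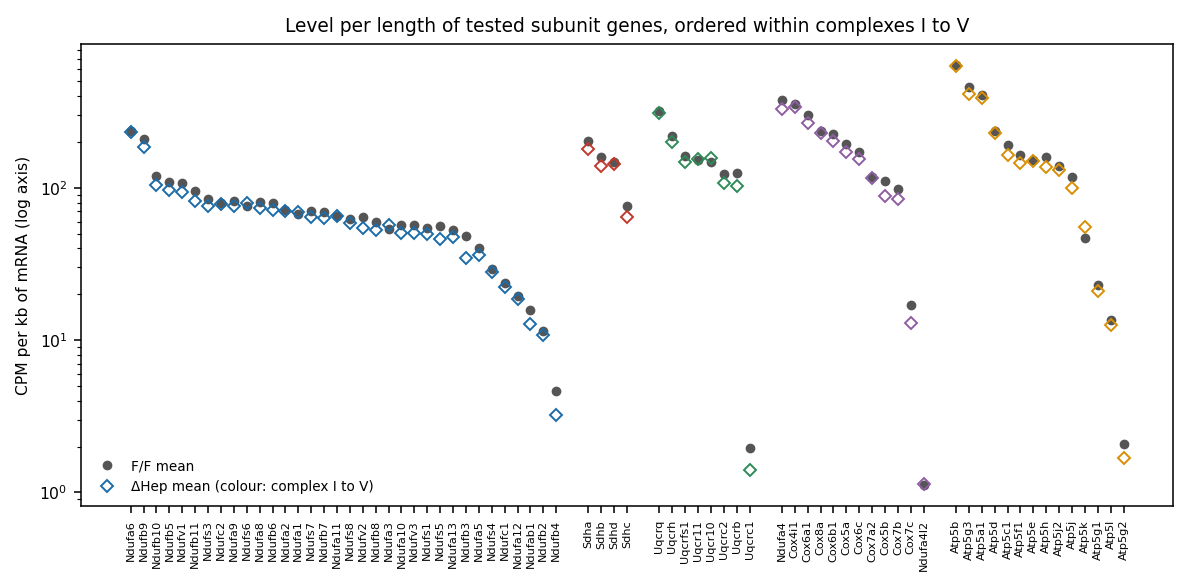
CPM per kb of mRNA (log axis) of tested subunit genes, ordered within complexes I to V, as the F/F mean (filled circles) and the ΔHep mean (open diamonds). On this axis the 2 groups lie close together for most genes, though some differ more, such as Ndufb3 (48.07 in F/F and 34.49 in ΔHep). Averaged over all libraries, subunits of 1 complex span from 3.95 to 234 in complex I and from 1.876 to 635.7 in complex V.

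The following lists of genes that work with the respiratory chain differed in their medians and counts. In each of them, 0 genes were past the threshold in edgeR. Over all tested genes, 1.68% were past it, and 6.97% were lower and 14.1% higher at an unadjusted p below 0.05. Electron carriers and the complex III subunit Cyc1, which the symbols above do not catch, had a median log2 fold change of -0.14 over 8 genes (0 with an unadjusted p below 0.05). Cyc1, cytochrome c1, was at 207, 196 and 178 CPM in F/F and at 167, 170 and 202 CPM in ΔHep (-0.11, edgeR adjusted p = 0.66). Etfa and Etfb, the electron transfer flavoprotein of fatty acid oxidation, had fold changes of -0.23 and -0.17 (edgeR adjusted p = 0.332 and 0.455). Assembly factors other than the Ndufaf genes had a median of -0.15 over 40 genes, with 5 lower and 0 higher at an unadjusted p below 0.05. The group ranges did not overlap for 13 of the 40, all lower, beside a background of 11.8% lower and 15.3% higher. The most abundant were Lrpprc, which stabilises mitochondrial mRNAs (-0.10, edgeR adjusted p = 0.617), and Coa5 (-0.09, edgeR adjusted p = 0.654).

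Genes of the mitochondrial ribosome, taken by the symbols Mrpl and Mrps, had a median of -0.15 over 78 genes. Of them, 10 were lower and 0 higher at an unadjusted p below 0.05. The background for this count and that of the cytosolic ribosome was 6.97% lower and 14.1% higher. The group ranges did not overlap for 22 lower and 1 higher of the 78 genes, beside a background of 11.8% lower and 15.3% higher. For the 87 genes of the cytosolic ribosome these counts were 11 lower and 2 higher. The summed level of the mitochondrial ribosome genes was 2018, 1953 and 1700 CPM in F/F and 1639, 1665 and 1768 CPM in ΔHep. Its most abundant gene, Mrpl12, had a fold change of -0.03 and Mrpl38 of -0.04 (edgeR adjusted p = 0.921 and 0.918). The cytosolic ribosome, another large set of short and abundant mRNAs, had a median of -0.03 over 87 genes, with 5 lower and 0 higher at an unadjusted p below 0.05; Rpl4 and Rps2, its most abundant genes, had fold changes of -0.11 and -0.16 (edgeR adjusted p = 0.642 and 0.509).

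The tricarboxylic acid cycle and pyruvate dehydrogenase, without complex II, had a median of -0.07 over 18 genes (1 lower and 0 higher at an unadjusted p below 0.05). Fh1, fumarase, the most abundant of them, had a fold change of -0.08 (edgeR adjusted p = 0.777). The carriers of ADP, phosphate and protons had a median of -0.07 over 7 genes. Of them, 2 were higher and 0 lower at an unadjusted p below 0.05, beside a background of 14.1% higher and 6.97% lower. Slc25a5, the main ADP/ATP carrier here, was at 416 ± 23.2 and 397 ± 40.9 CPM and the phosphate carrier Slc25a3 at 306 ± 17.7 and 290 ± 26.0 CPM (SD, n = 3 each; -0.07 and -0.08, edgeR adjusted p = 0.804 and 0.753).

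The regulators of mitochondrial biogenesis had a median of -0.19 over 20 genes. At an unadjusted p below 0.05, 3 were lower and 1 higher, beside the same background of 6.97% lower and 14.1% higher. Gabpa, an ETS factor of respiratory gene promoters and the most abundant of them, stood at 71.3 ± 1.27 and 60.9 ± 2.71 CPM (SD, n = 3 each; -0.23, edgeR adjusted p = 0.199), and Nfe2l2 at 57.4 ± 5.38 and 58.0 ± 9.94 CPM (0.01, edgeR adjusted p = 0.969). Among the members, the 18 tested genes with the NRF1 letters in their promoter had a median fold change of -0.15 and the 53 without them -0.14. The values of the genes with and without the letters thus lay close together.

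**Figure D5:**
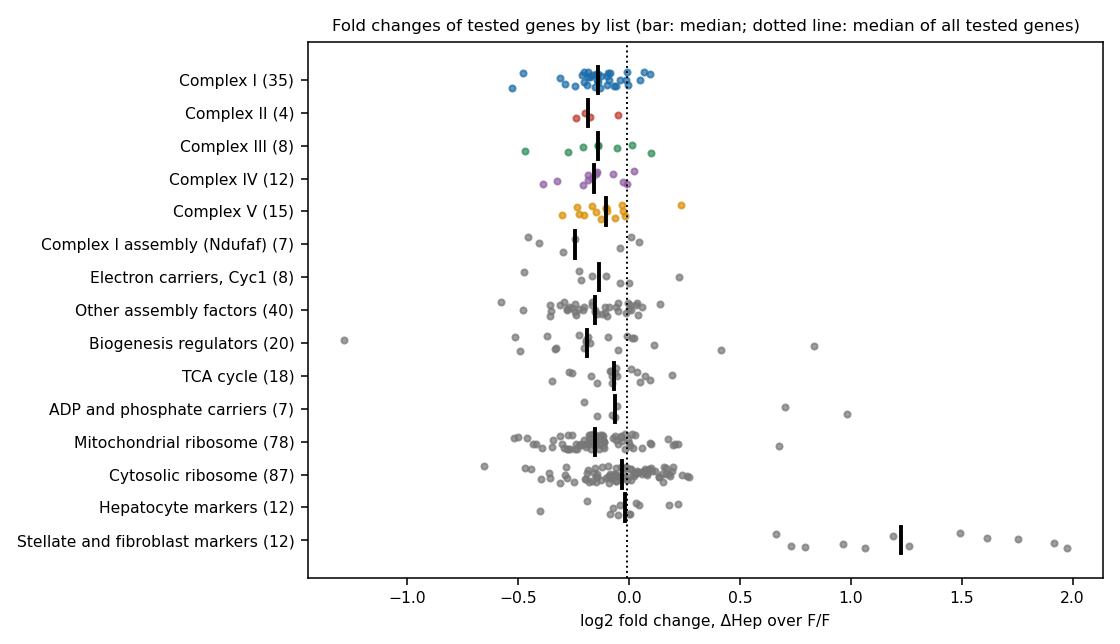
Log2 fold change of ΔHep over F/F of the tested genes of each list (points; number of genes in brackets), with the list's median (bars) and the median of all tested genes (dotted line). The medians of complexes I to V lie between -0.19 and -0.10, next to those of the mitochondrial ribosome (-0.15) and away from the stellate cell markers (1.23).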

How the data were processed

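RNA sequencing of 6 libraries was analysed from 1 deposited table in which the authors give raw counts by gene symbol. Reads were aligned to mm10 with HISAT2 2.0.4, per the submitters' processing notes; how reads were counted (program, annotation, strand setting, filters) is not given in the sources used here. Columns were matched to samples by genotype and replicate number in their names. In edgeR 4.0.16 (R 4.3.3), filterByExpr (minimum count 10, minimum total 15) kept 14552 genes, library sizes were scaled by TMM, and genotype was the only term in a quasi-likelihood test with Benjamini-Hochberg adjustment (threshold 0.05). The standard error is the fold change over the square root of F, and 95% intervals use its degrees of freedom. DESeq2 1.42.0 and limma 3.58.1 (voom) were alternatives. The fit was tested on simulated data. mRNA length is the median over coding transcripts of GENCODE vM21 (GRCm38). Between 26.67 and 37.87 counts made 1 CPM; low members are limited by counting error. Pairs of libraries within a group differed far beyond counting noise (chi-square over degrees of freedom 17.92 to 106.2).

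Members and lists were chosen with earlier results of these data known. Genes named by rule were, for each complex, the most abundant and those with the highest and lowest fold change at 1 CPM or more, all complex II subunits, the paired forms of complex IV and the ATPase inhibitor; from other lists, the 2 most abundant. Some genes that this rule names are not reported here, and figures that name genes leave them out.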

Additional observations from a re-analysis of the deposited data

How the results depend on the processing

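The count of all genes past the threshold, 244, was 644 with library totals only, 1309 with DESeq2 and 88 with limma-voom, and ran from 1 to 1246 when single libraries were left out (1 without F/F replicate 2, 1246 without F/F replicate 3). The members' count, 0, was 2 with DESeq2 and ran from 0 to 4 without single libraries; the 4 were Atp5sl, Cox5b, Ndufaf4 and Ndufb3, without F/F replicate 3, where 1.49% of all genes were called lower. It stayed 0 under the other scalings and filters. Libraries share only a replicate number: deviations of same-numbered libraries correlated at 0.113, -0.0689 and -0.00898, and not every library correlated best with its own number. The replicate block gave 0 members and 236 genes, and changed no call of a member. The members' median of -0.14 ran from -0.21 to -0.073 without single libraries, and stayed negative in every fit. Library totals only moved the median of all genes to 0.085, with the members' at -0.048; the gap, -0.13, was as in TMM. Leaving out single libraries gave medians from -0.24 to -0.064 in complex I, -0.26 to -0.11 in II, -0.21 to -0.056 in III, -0.26 to -0.062 in IV and -0.22 to -0.034 in V. With library totals only the medians of complexes I to V were -0.049, -0.093, -0.046, -0.062 and -0.0094. Complex II had the lowest of the 5 medians with all libraries, but complex IV had it without F/F replicate 3 or ΔHep replicate 3; complex V, nearest to 0 with all libraries, was not so without F/F replicate 1 or ΔHep replicate 3.

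Among the members compared one by one across settings, 29 in all, some small fold changes turned sign, and the cause was not tested. With library totals only, where negative values over all 86 members went from 75 to 55, these were Sdhd (0.046), Cox4i1 (0.021), Atp5b (0.069), Cox7a2 (0.086), Cox7a2l (0.026) and Cox8a (0.064), and with a minimum of 1 CPM Cox7a2 (7.1e-05). Without single libraries Sdhd ran from -0.18 to 0.015, Cox7a2 from -0.15 to 0.0701, Cox8a from -0.17 to 0.073, Atp5b from -0.11 to 0.055, Ndufa3 from -0.0057 to 0.20, Uqcr10 from -0.10 to 0.24, Uqcrc1 from -0.81 to 0.43 and Ndufa4l2 from -0.32 to 0.56.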

Other observations

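Some subunits had far fewer counts than their partners in the same complex. Uqcrc1 was at 1.686 CPM per kb, against 114.1 for the next lowest subunit of complex III, Uqcrb. In complex IV the main form Cox7c was at 15.07 CPM per kb, against 91.43 for Cox7b. In complex V Atp5g2 was at 1.876 and Atp5l at 13.08 CPM per kb, and in complex I Ndufb4 was at 3.95. The share of 50-base words of the mRNA that also occur in other annotated genes was 84.85% for Atp5l, 36.98% for Ndufb4, 27.88% for Cox7c, 14.77% for Atp5g2 and 0% for Uqcrc1. Of the 89 members with a gene of their own in the annotation, 47 share at least 1 such word with another gene and 15 at least 25% of them, among them Atp5f1 (38.71%) and Atp5h (47.87%), which had many counts. Exons of 22 members overlap a gene on the opposite strand. How the authors' counting treated such reads is not given in the sources used here.

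Outside the respiratory chain, 5 genes of the lists of regulators and carriers are named for their values; none passed. Ppargc1a, the coactivator PGC-1α, known to raise respiratory gene expression, was at 16.1, 8.13 and 18.6 CPM in F/F and at 23.5, 19.5 and 33.2 CPM in ΔHep (log2 fold change 0.83, SE 0.31, edgeR adjusted p = 0.178). Ucp2, a mitochondrial carrier abundant in macrophages, was at 22.3, 28.8 and 52.9 CPM in F/F and at 74.2, 65.9 and 65.7 CPM in ΔHep (0.98, SE 0.28, edgeR adjusted p = 0.101). Slc25a4, an ADP/ATP carrier typical of heart and muscle, was at 4.95, 4.24 and 6.96 CPM in F/F and at 6.87, 10.4 and 9.01 CPM in ΔHep (0.70, SE 0.24, edgeR adjusted p = 0.149). In the opposite direction, Mterf1a, a mitochondrial transcription termination factor with few counts, was at 1.27, 2.27 and 1.54 CPM in F/F and at 0.859, 0.459 and 0.766 CPM in ΔHep (-1.28, SE 0.40, edgeR adjusted p = 0.124). Mterf3, of the same family, was at 26.2, 18.4 and 21.9 CPM in F/F and at 16.9, 14.4 and 15.2 CPM in ΔHep (-0.52, SE 0.15, edgeR adjusted p = 0.116). The groups overlapped for Slc25a4 and did not for the other 4. The summed macrophage markers, given above, had a higher mean in ΔHep (518.9 CPM, against 312.1 CPM in F/F), with overlapping ranges. Their part was not tested.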
